A study of Arabidopsis thaliana with 42 samples.

Results

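RNA sequencing of Arabidopsis thaliana seedlings compared plants labelled mtn1-1mtn2-5 with wild-type (WT) plants, both grown on medium with spermidine. The comparison rests on 6 of the 42 libraries of the series, 3 of each genotype, chosen by their labelled tissue, genotype and medium. All plants were of the Col-0 strain per the labels and were sampled at 14 days. They grew in continuous light on half-strength Murashige and Skoog (MS) medium with sucrose and agarose. Both groups had 100 µM spermidine in the medium, so the WT controls carried the treatment too. Each library came from pooled, ground whole-seedling tissue. The labels name the alleles but do not say what kind of lesion mtn2-5 is, and names of genotypes follow the labels throughout. As libraries outside the comparison, 3 of mtn1-1mtn2-5 and 3 of WT on mock medium (the same medium without spermidine) were used. A further 3 libraries of mtn1-1mtn2-1 seedlings on spermidine, which carry another allele of MTN2, served for a direct comparison of the mutants.

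MTN1 and MTN2 encode methylthioadenosine nucleosidases. These enzymes cleave methylthioadenosine, the by-product of spermidine, spermine, thermospermine, ethylene and nicotianamine synthesis, and pass it to the Yang cycle, which rebuilds methionine from it. Spermidine is a polyamine made from putrescine and decarboxylated S-adenosylmethionine. Methionine also feeds aliphatic glucosinolates, the sulfur-rich defence compounds of the cabbage family, whose breakdown by myrosinases yields isothiocyanates or nitriles.

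The 18 seedling libraries of the fit held 40.3 to 48.3 M fragments, estimated from the spacing of low count values, and 25201 genes were tested. Levels below are CPM, read counts relative to library size after scaling for library composition. A gene is called when its edgeR adjusted p is under 0.05, and a library is said to be at the floor of detection for a gene when it held no more than 3 fragments of it, a limit that covers counting error only. The summed level of 10 green shoot markers was 55670 to 61610 TPM in mtn1-1mtn2-5 and 55800 to 64110 TPM in WT. For 10 root markers the ranges were 184.8 to 201.5 TPM and 190.3 to 255.7 TPM. Of these markers 1 of 20 was called, the root epidermis regulator WER, which was higher in mtn1-1mtn2-5 (log2 fold change 0.85, edgeR adjusted p 0.0167) and lost its call in 4 of 14 alternative fits. The 8 floral organ genes summed to 5.66 to 6.21 TPM in mtn1-1mtn2-5 and 8.05 to 10.5 TPM in WT, with 0 of the 7 tested ones called, and the 8 seed genes summed to at most 0.446 TPM in any of the 6 libraries. Replicate 3 of WT on spermidine stood apart in its share of chloroplast transcripts (3.15% of counts, against 1.77 to 1.96% in the other 5) and of rRNA (1.92%, against 0.538 to 1.05%). Fewer cells of a type and less RNA per cell cannot be told apart in such bulk samples. Several genes named below overlap another annotated gene, among them MTN1, MTN2, AOP1, APR3, SULTR4;2, SERAT2;1, ACL5, EBF2, bHLH101, FLC, FRI, CESA4, CESA7, CESA8, AT3G15450 and AT1G27580. Use of strand in counting is not given in the sources used here, so reads of such neighbours may be mixed, as may reads of close relatives such as AOP2 and AOP3, NIT1 and NIT2, or IGMT1 and IGMT2.

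The targeted genes were examined first. MTN1 (AT4G38800) stood at 4.37, 4.84 and 4.62 CPM in mtn1-1mtn2-5 and at 104, 109 and 108 CPM in WT. The groups were far apart, with little spread within either (log2 fold change -4.54, SE 0.45, edgeR adjusted p 4.6e-06). MTN2 (AT4G34840) stood at 7.92, 7.66 and 8.06 CPM in mtn1-1mtn2-5 and at 7.83, 7.84 and 8.87 CPM in WT. These groups overlapped, and the difference did not pass the test (log2 fold change -0.05, SE 0.09, adjusted p 0.768). By contrast, MTN2 on spermidine in mtn1-1mtn2-1 was at 0.0559, 0.0698 and 0.0779 CPM, so the mutants differed in the RNA of this gene (6.85 on the log2 scale, adjusted p 1.72e-14).

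**Figure D1:**
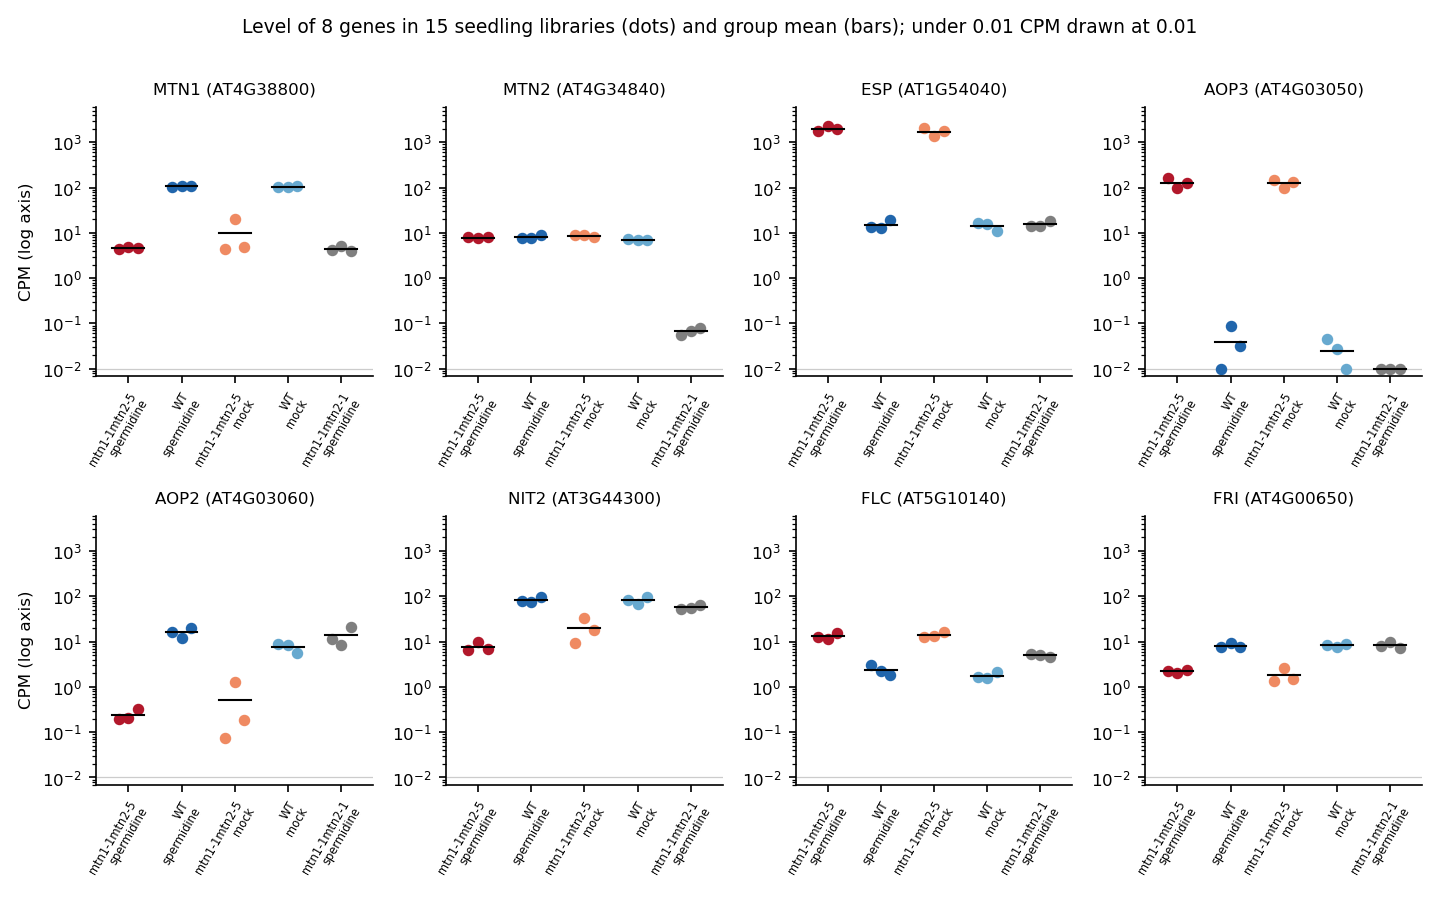
Level of 8 genes in CPM on a log axis, with a dot for each library and a bar for the mean of each group of 3 (values under 0.01 CPM are drawn at 0.01). In the spermidine groups of mtn1-1mtn2-5 and WT, MTN1, AOP2, NIT2 and FRI are lower in mtn1-1mtn2-5, ESP, AOP3 and FLC are higher, and MTN2 overlaps.

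Of the 25201 genes, 3269 were called between mtn1-1mtn2-5 and WT on spermidine (13% of those tested), 1743 higher (6.92%) and 1526 lower (6.06%) in the mutant. At least 2-fold changes made up 1189 of the calls (4.72% of genes tested), 610 higher and 579 lower. The median log2 fold change over all tested genes was 0.00. At an unadjusted p under 0.05 there were 6523 genes. Leaving out replicate 3 of mtn1-1mtn2-5 lowered the count of calls to 2163, and leaving out replicate 3 of WT raised it to 3350.

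Large differences were found at ESP, of glucosinolate breakdown, and at AOP3 and AOP2, of side-chain modification. ESP (AT1G54040), the epithiospecifier protein that turns glucosinolate breakdown towards nitriles, stood at 1736, 2269 and 1974 CPM in mtn1-1mtn2-5 and at 13.2, 12.7 and 18.8 CPM in WT. Every mutant library lay far above every WT library (log2 fold change 7.07, SE 0.25, edgeR adjusted p 2.69e-10). AOP3 (AT4G03050), a dioxygenase that converts methylsulfinylalkyl to hydroxyalkyl side chains, stood at 164, 98.8 and 124 CPM in mtn1-1mtn2-5 and at 0, 0.0863 and 0.0312 CPM in WT. It was abundant in all 3 mutant libraries and close to 0 in all 3 of WT (log2 fold change 11.63, SE 0.55, adjusted p 1.1e-07). Its neighbour AOP2 (AT4G03060), which makes alkenyl side chains from the same substrates, stood at 0.193, 0.211 and 0.325 CPM in mtn1-1mtn2-5 and at 16.5, 12.1 and 20.1 CPM in WT. AOP2 was thus the reverse of AOP3 (log2 fold change -6.05, SE 0.74, adjusted p 4.29e-05), and reads that fit both genes could have been assigned to either. As background, natural strains of Arabidopsis are known to differ in which of AOP2 and AOP3 they express and in whether they express ESP. Whether that bears on these libraries was not tested.

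The 250 bases before the annotated starts of these genes are shown because these genes had large fitted fold changes, ESP and AOP3 upward and AOP2 downward. They were read from the RefSeq genome of assembly TAIR10.1, which is a Col-0 reference, at chr1:20173950-20174199 (minus strand) for ESP, chr4:1343595-1343844 (plus strand) for AOP3 and chr4:1354097-1354346 (minus strand) for AOP2. Capitals mark the letters TATAAA, or TTTATA for the other strand, with overlapping matches allowed.
ESP: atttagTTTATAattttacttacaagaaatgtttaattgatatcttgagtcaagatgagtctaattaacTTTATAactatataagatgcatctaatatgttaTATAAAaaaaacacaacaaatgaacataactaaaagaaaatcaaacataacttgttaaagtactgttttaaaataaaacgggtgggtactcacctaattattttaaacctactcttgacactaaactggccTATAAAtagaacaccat
AOP3: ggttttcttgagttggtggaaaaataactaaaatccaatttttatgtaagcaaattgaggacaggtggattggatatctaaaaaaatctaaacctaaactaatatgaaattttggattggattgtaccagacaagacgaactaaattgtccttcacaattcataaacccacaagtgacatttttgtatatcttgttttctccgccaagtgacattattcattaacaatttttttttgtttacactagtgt
AOP2: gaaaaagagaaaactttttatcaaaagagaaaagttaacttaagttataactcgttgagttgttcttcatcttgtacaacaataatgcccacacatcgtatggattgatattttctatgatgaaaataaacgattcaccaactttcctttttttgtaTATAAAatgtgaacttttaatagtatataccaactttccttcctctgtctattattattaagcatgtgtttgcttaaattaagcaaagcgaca
The ESP window held 4 matches, the AOP2 window 1 and the AOP3 window 0, and 47.3% of 27443 promoter windows of the same length held at least 1. These matches are a description of the reference letters, not of the mutant's genome.

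Of the 10 genes of glucosinolate breakdown, 4 were called higher and 2 lower, where 13% of all tested genes were called, and the list's median log2 fold change was -0.09. The myrosinases TGG1 and TGG2, which cleave glucosinolates, rose modestly. TGG1 stood at 2993, 3305 and 3089 CPM in mtn1-1mtn2-5 and 2353, 2557 and 2343 CPM in WT (log2 fold change 0.37, SE 0.09, adjusted p 0.0129), and TGG2 rose by 0.53 (adjusted p 0.00316). NSP1, a nitrile specifier protein, stood at 1009, 1038 and 982 CPM against 748, 666 and 725 CPM (0.50, adjusted p 0.00442). NIT2, a nitrilase, fell from 80.3, 74.1 and 98.7 CPM in WT to 6.42, 9.78 and 6.80 CPM in mtn1-1mtn2-5 (log2 fold change -3.46, SE 0.35, adjusted p 5.5e-06). The adjacent nitrilase NIT1 fell from 723, 781 and 683 CPM to 209.6, 254 and 261 CPM (-1.59, adjusted p 8.79e-06). None of these 5 genes overlapped between the groups, as was so for 32.5% of all tested genes. TGG1 lost its call in 3 of 14 alternative fits.

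In aliphatic glucosinolate synthesis 2 of 31 genes were called higher and 3 lower, beside 13% of all tested genes. They were AOP3, AOP2, AOP1, FMOGS-OX2 and BAT5. AOP1, the third gene of the AOP cluster, rose from 6.72, 7.59 and 5.54 CPM in WT to 9.52, 10.1 and 10.8 CPM in mtn1-1mtn2-5 (log2 fold change 0.61, adjusted p 0.0200). FMOGS-OX2, a flavin monooxygenase that oxidises the side chain, fell from 11.6, 7.57 and 10.1 CPM to 1.62, 1.02 and 1.3 CPM (-2.89, adjusted p 2.02e-07). BAT5, the plastid transporter of the chain elongation intermediates, fell from 20.7, 26.9 and 27.2 CPM to 12.4, 6.57 and 8.62 CPM (-1.44, adjusted p 4.94e-05). The other 26 genes were not called, and the list's median was -0.04. AOP1 lost its call in 4 of 14 alternative fits.

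Indolic glucosinolate genes, which start from tryptophan, were called in 7 of 15 cases, 2 higher and 5 lower, with a list median of -0.12. Of all tested genes 13% were called, 6.92% higher and 6.06% lower. CYP79B2, which makes indole-3-acetaldoxime, fell from 75.1, 66.3 and 71.6 CPM in WT to 49.9, 38.6 and 41.6 CPM in mtn1-1mtn2-5 (log2 fold change -0.71, adjusted p 0.000489). CYP83B1, the next enzyme, stood at 181, 152 and 159 CPM against 227, 218 and 218 CPM (-0.43, adjusted p 0.0055). The methyltransferases that finish methoxylated indolic glucosinolates moved in opposite directions, and their reads can be hard to separate. IGMT2 stood at 83.0, 88.6 and 97.8 CPM in mtn1-1mtn2-5 and 28.5, 19.9 and 29.0 CPM in WT (1.80, adjusted p 1.47e-06), while IGMT1 stood at 58.0, 74.6 and 58.7 CPM against 107, 85.2 and 102 CPM (-0.62, adjusted p 0.0451). The regulators split too, with MYB51 higher (0.78, adjusted p 0.0458) and MYB122 lower (-1.05, adjusted p 0.00961), and CYP81F2, a hydroxylase of the indole ring, was lower (-1.03, adjusted p 0.0223). Over 14 alternative fits MYB51 lost its call in 8, IGMT1 and CYP81F2 in 4 each and MYB122 in 2. Not every fit gave a value for MYB122.

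In the Yang cycle list MTN1 was the only gene of 9 called, beside 13% of all tested genes, and the list's median log2 fold change was -0.03. MTK, the kinase that acts next on methylthioribose, averaged 33.4 ± 4.41 CPM in the mutant and 31.1 ± 5.79 CPM in WT (SD, n = 3 each, log2 fold change 0.10, adjusted p 0.707 by edgeR). The dioxygenase gene ARD1 was at 122 ± 8.32 and 112 ± 15.2 CPM (0.12, adjusted p 0.437, edgeR, n = 3 each). Of 19 genes of methionine synthesis and the S-adenosylmethionine cycle, 0 were called, with log2 fold changes from -0.51 to 0.15 and a median of -0.03. A missed threshold does not show that levels were equal.

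Genes of polyamine synthesis changed by small amounts in both directions, 2 of 12 higher and 2 lower, with a median log2 fold change of 0.02. The shares over all tested genes were 6.92% higher and 6.06% lower. SAMDC2, an S-adenosylmethionine decarboxylase, stood at 46.7, 41.7 and 42.2 CPM in mtn1-1mtn2-5 and 59.5, 82.8 and 61.2 CPM in WT (log2 fold change -0.64, adjusted p 0.00613). ADC2, an arginine decarboxylase of putrescine synthesis, stood at 361, 369 and 351 CPM against 424, 481 and 428 CPM (-0.30, adjusted p 0.0241). Both genes were lower in every mutant library than in any WT library. The spermidine synthase SPDS2 rose (0.27, adjusted p 0.0143), and so did ACL5, the thermospermine synthase (53.5 ± 0.704 against 40.5 ± 6.62 CPM, n = 3 each, 0.40, edgeR adjusted p 0.0182). In polyamine oxidation and uptake, 1 of 14 genes was higher and 2 were lower, with a median of -0.02. PUT1, a polyamine importer, fell from 12.8, 17.5 and 10.1 CPM in WT to 7.04, 6.03 and 7.62 CPM (-0.96, adjusted p 0.00128). PAO3, a peroxisomal polyamine oxidase, fell by 0.39 on the log2 scale (adjusted p 0.00216), and the copper amine oxidase CuAO2 rose by 0.38 (adjusted p 0.0221). Over 14 alternative fits the call was lost in 4 each for ACL5 and ADC2, 3 for CuAO2 and 1 for SPDS2.

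Among genes of sulfate uptake and reduction, SULTR1;2, SULTR4;1, SULTR4;2, APR3 and SERAT2;1 were called lower and APK4 higher. Over all tested genes 6.06% were called lower and 6.92% higher. In the sulfate transport list 3 of 12 genes were called lower and 0 higher (median -0.14), in sulfate assimilation and cysteine and glutathione synthesis 2 of 22 were lower and 1 higher (median -0.05), and among sulfur starvation markers 2 of 11 were lower and 0 higher (median -0.22). SULTR1;2, the main root sulfate importer, stood at 51.2, 47.9 and 41.2 CPM in mtn1-1mtn2-5 and 73.8, 90.1 and 73.0 CPM in WT (log2 fold change -0.76, SE 0.17, adjusted p 0.00811). The vacuolar exporters SULTR4;1 (-0.43, adjusted p 0.00976) and SULTR4;2 (-0.47, adjusted p 0.0219) were lower too. APR3, an adenosine phosphosulfate reductase, stood at 87.7, 108 and 97.7 CPM against 136, 163 and 129.8 CPM (-0.55, SE 0.17, adjusted p 0.0404), and it counts in 2 of these lists, as does SULTR4;2. SERAT2;1, a serine acetyltransferase of cysteine synthesis, stood at 40.9, 40.1 and 35.3 CPM against 59.1, 61.0 and 59.1 CPM (-0.62, SE 0.10, adjusted p 0.00046). The kinase gene APK4 rose (0.68, adjusted p 0.0243). Over 14 alternative fits the calls of APR3, SULTR4;2 and APK4 were each lost in 5 and that of SULTR4;1 in 2.

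Promoter windows of APR3, at chr4:11659168-11659417 (minus strand), and of SULTR1;2, at chr1:29327265-29327514 (plus strand), are shown because both genes fell and because GAGAC is the core of a sulfur-responsive element known from the promoter of another sulfate transporter gene. They come from the same RefSeq assembly.
APR3: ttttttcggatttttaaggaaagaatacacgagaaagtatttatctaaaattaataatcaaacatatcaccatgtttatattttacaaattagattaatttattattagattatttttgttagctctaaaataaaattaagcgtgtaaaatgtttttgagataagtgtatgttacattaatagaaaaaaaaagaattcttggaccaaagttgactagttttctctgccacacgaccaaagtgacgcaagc
SULTR1;2: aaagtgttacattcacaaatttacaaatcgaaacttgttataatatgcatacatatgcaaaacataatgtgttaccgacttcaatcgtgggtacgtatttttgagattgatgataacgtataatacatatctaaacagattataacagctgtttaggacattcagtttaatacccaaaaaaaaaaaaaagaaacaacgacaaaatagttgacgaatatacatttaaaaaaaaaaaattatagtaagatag
Neither window held GAGAC or, on the other strand, GTCTC, and nor did the windows of SULTR4;1, SULTR4;2 and SERAT2;1. Over 27443 promoter windows of this length the share with a match was 25.8%. The result says only that these letters are not in these windows.

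Among typical sulfur starvation markers that missed the threshold on spermidine, LSU2 stood at 10.2, 9.39 and 11.6 CPM in mtn1-1mtn2-5 and 16.9, 16.2 and 13.8 CPM in WT (log2 fold change -0.59, adjusted p 0.128). SDI1, a repressor of glucosinolate synthesis under low sulfur, stood at 6.69, 10.9 and 8.88 CPM against 11.7, 17.1 and 10.3 CPM (-0.56, adjusted p 0.256). LSU1 varied most within WT, at 0.285, 17.6 and 6.27 CPM. On mock medium 5 of the 11 markers were called lower, with a median of -1.01, where 7.69% of all tested genes were called. The difference between media passed the test for 1 of the 11, SDI2 (1.45, edgeR interaction adjusted p 0.0120), with 1.22% of all tested genes called in that test.

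**Figure D2:**
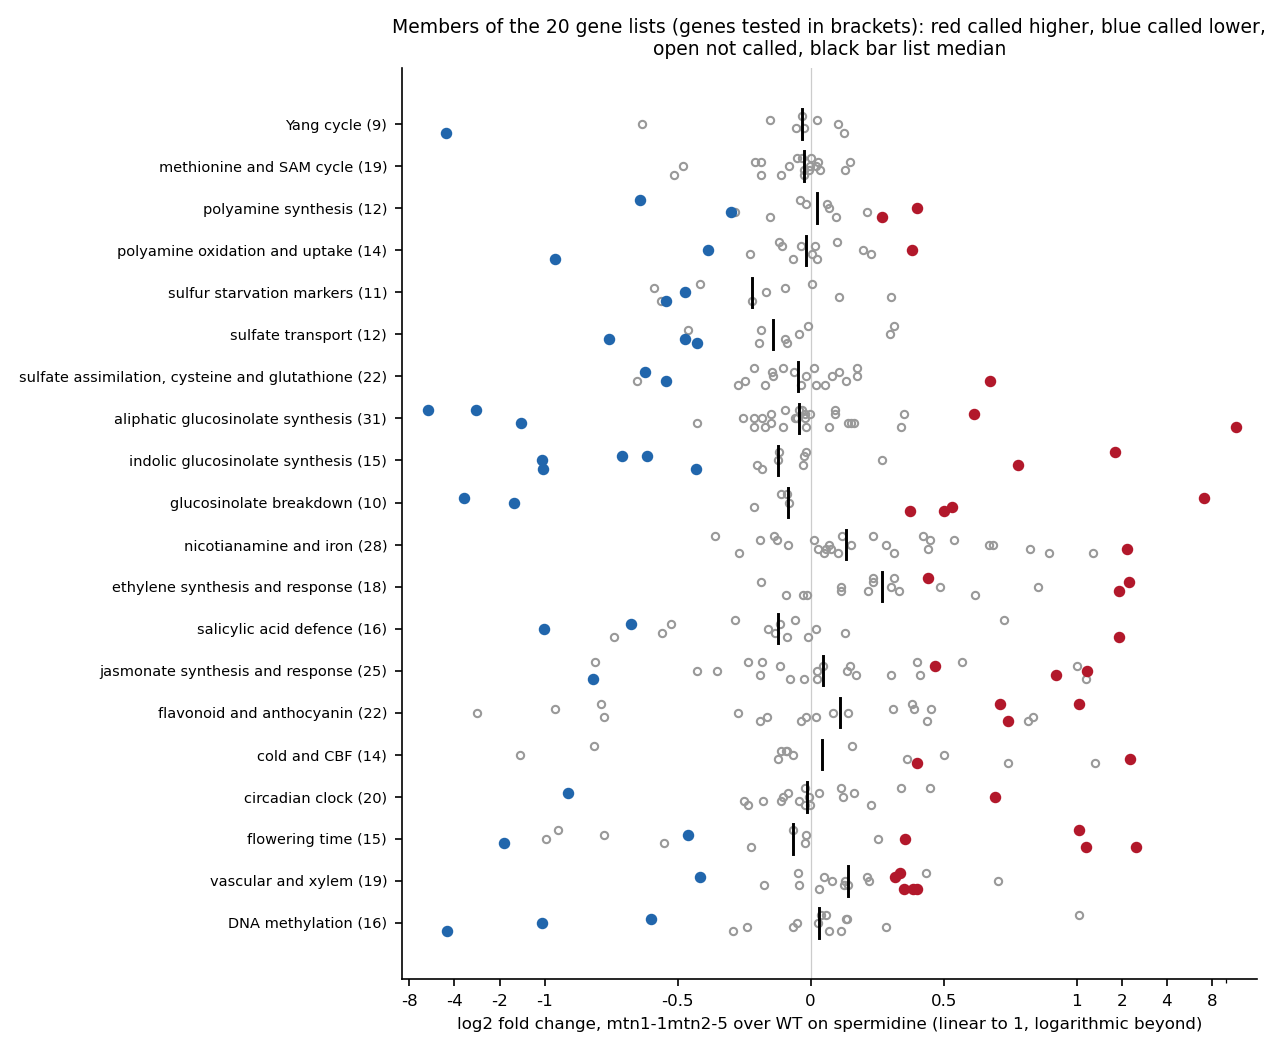
Log2 fold change of mtn1-1mtn2-5 over WT on spermidine for every tested gene of 20 lists, on an axis that is linear to 1 and logarithmic beyond. Red points were called higher, blue points called lower and open points not called, and a black bar gives the list median. Medians lie between -0.22 and 0.27, and the points at the far ends are AOP3, ESP and AOP2.

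Ethylene and nicotianamine synthesis are the other routes that release methylthioadenosine. In the ethylene list 3 of 18 tested genes were called higher and 0 lower, with a median of 0.27, where 6.92% of all tested genes were higher and 6.06% lower. ACS6, a stress-induced isoform of the rate-limiting enzyme ACC synthase, stood at 52.4, 66.2 and 69.9 CPM in mtn1-1mtn2-5 and 13.7, 9.96 and 16.1 CPM in WT (log2 fold change 2.24, SE 0.30, adjusted p 0.000113). ACS4, another isoform, stood at 6.23, 5.06 and 4.13 CPM against 1.02, 1.15 and 1.89 CPM (1.93, adjusted p 0.00267), and EBF2, an ethylene-induced F-box gene, rose by 0.44 (adjusted p 0.00297). The ACC oxidases ACO1 to ACO5 were not called. Of 28 nicotianamine and iron genes 1 was called, the iron-deficiency regulator bHLH101, at 6.27, 9.76 and 9.65 CPM in mtn1-1mtn2-5 and 1.59, 1.42 and 2.65 CPM in WT (2.18, adjusted p 0.00139). The nicotianamine synthases NAS1 to NAS4 were not called, and the iron transporter IRT1 varied widely within WT (95.1 ± 79.7 CPM, SD, n = 3).

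Of 16 salicylic acid genes 1 was called higher and 2 lower (median -0.12), beside 13% of all tested genes. The transcription factor WRKY70 stood at 51.3, 74.4 and 81.1 CPM in mtn1-1mtn2-5 and 18.4, 20.1 and 15.7 CPM in WT (log2 fold change 1.93, SE 0.24, adjusted p 5.04e-05). CBP60g, an activator of salicylic acid synthesis, stood at 8.18, 9.66 and 12.2 CPM against 21.4, 17.3 and 22.0 CPM (-1.01, adjusted p 0.00669), and PBS3, an enzyme of that synthesis, fell by 0.68 (adjusted p 0.0189). In the jasmonate list 3 of 25 genes were higher and 1 lower (median 0.05). These were the plant defensins PDF1.2a (0.92, adjusted p 0.0289) and PDF1.2b (1.18, adjusted p 0.0262), the repressor JAZ6 (0.47, adjusted p 0.0202) and the lipoxygenase LOX2 (-0.82, adjusted p 0.0446). Over 14 alternative fits LOX2 lost its call in 6, the defensins in 4 each, JAZ6 in 3 and PBS3 in 2.

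Flowering time regulators held large differences at FLC and FRI. FLC, a repressor of flowering, stood at 12.5, 11.7 and 15.8 CPM in mtn1-1mtn2-5 and 3.09, 2.2 and 1.87 CPM in WT (log2 fold change 2.48, SE 0.18, adjusted p 1.97e-07). FRI, an activator of FLC, fell from 7.67, 9.14 and 7.54 CPM in WT to 2.22, 2.03 and 2.39 CPM (-1.87, SE 0.20, adjusted p 1.05e-05). The FLC relatives MAF4 (1.03, adjusted p 0.000553) and MAF5 (1.15, adjusted p 0.0417) were higher, and SOC1, a flowering activator that FLC represses, was lower (-0.46, adjusted p 0.0194). MAF2 was called higher from the counts (0.35, adjusted p 0.0404) but lower from the TPM table (-0.36, limma adjusted p 0.0420), so no direction is given for it. With MAF2 the list had 4 of 15 genes higher and 2 lower, and a median of -0.07, beside 6.92% higher and 6.06% lower of all tested genes. MAF5 lost its call in 7 of 14 alternative fits and SOC1 in 4.

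Thermospermine, the product of ACL5, is known to restrain xylem formation. In the vascular list, which includes ACL5, 5 of 19 genes were higher and 1 lower, with a median of 0.14. Over all tested genes 6.92% were called higher and 6.06% lower. The secondary wall cellulose synthases CESA4, CESA7 and CESA8 rose by 0.32, 0.34 and 0.35 on the log2 scale (adjusted p 0.0401, 0.0203 and 0.0169), and the xylem protease XCP2 rose by 0.39 (adjusted p 0.0177). CESA7, for example, stood at 24.6, 27.1 and 24.8 CPM in mtn1-1mtn2-5 and 20.3, 18.8 and 21.6 CPM in WT. SACL3, a helix-loop-helix gene whose translation thermospermine promotes, was lower (-0.42, adjusted p 0.00137). Over the 14 alternative fits the call was lost in 9 for CESA4, 4 for CESA7, 3 each for CESA8 and XCP2, and 0 for SACL3.

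The remaining lists are given beside the 13% of all tested genes that were called, 6.92% higher and 6.06% lower. In flavonoid and anthocyanin synthesis 3 of 22 genes were higher (median 0.11), namely MYBL2, DFR and UGT75C1. The repressor MYBL2 stood at 67.5, 67.4 and 65.9 CPM in mtn1-1mtn2-5 and 39.9, 36.2 and 21.9 CPM in WT (log2 fold change 1.03, adjusted p 0.00129). DFR rose by 0.74 (edgeR adjusted p 0.0462) and UGT75C1 by 0.71 (edgeR adjusted p 0.022). In the cold list 2 of 14 were higher (median 0.04), the zinc finger gene ZAT10 (2.25, adjusted p 0.00195) and the dehydrin gene COR47 (0.40, adjusted p 0.0234). Clock genes had 1 of 20 higher, RVE1 (0.69, adjusted p 0.0213), and 1 lower, PRR9 (-0.91, adjusted p 0.0224), with a median of -0.02. Among 16 tested genes of DNA methylation and its reporters 0 were higher and 3 were lower (median 0.03). They were QQS, a gene whose level varies with its own methylation (-4.48, SE 1.09, adjusted p 0.0121), the methyl-cytosine binding gene VIM2 (-1.04, adjusted p 0.000712) and the demethylase DML3 (-0.60, adjusted p 0.0445). QQS stood at 0.300, 0.203 and 0.141 CPM in mtn1-1mtn2-5 and 4.14, 3.81 and 6.39 CPM in WT, and 1 mtn1-1mtn2-5 library on mock medium held 7.43 CPM. Over 14 alternative fits DML3 lost its call in 8, DFR in 7 and COR47 and UGT75C1 in 5 each. PRR9 and RVE1 lost it in 4 each and QQS in 2.

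By difference of mean level, the genes that rose most were ESP, TGG1, LHCB2.2, CAT3, AT3G15450 and GRP9. LHCB2.2, a light-harvesting protein of photosystem II, stood at 2068, 1777 and 1663 CPM in mtn1-1mtn2-5 and 1166, 1020 and 931.5 CPM in WT (log2 fold change 0.82, SE 0.19, adjusted p 0.0084). The catalase gene CAT3 stood at 2164, 2059 and 2002 CPM against 1238, 1392 and 1236 CPM (0.69, SE 0.15, adjusted p 0.00624). AT3G15450, annotated as an aluminum-induced protein, stood at 660.3, 716 and 830 CPM against 220.3, 221 and 194 CPM (1.80, SE 0.30, adjusted p 0.000783). Groups that did not overlap were a condition for choosing these genes, so this is no separate result. The falls of greatest size were in ATCG00480 of the chloroplast genome, NIT1, ECS1, GRP3S, DOX1 and AT2G10940. ECS1 fell from 459.7, 492 and 418 CPM in WT to 121, 98.0 and 115 CPM (-2.04, SE 0.17, adjusted p 9.93e-07), and DOX1, an alpha-dioxygenase of fatty acids, fell from 650.5, 526 and 764 CPM to 329, 409 and 309 CPM (-0.89, SE 0.25, adjusted p 0.0285). ATCG00480 fell by 0.43 (adjusted p 0.0262), and by 0.42 (adjusted p 0.0493) without WT replicate 3, which held the largest chloroplast share. Over 14 alternative fits GRP9 lost its call in 6, and ATCG00480 and DOX1 in 4 each.

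A set of genes was present in one genotype and at the floor in the other. Of called genes, 60 held at least 50 count units in every mtn1-1mtn2-5 library and were at the floor in every WT library (0.238% of tested genes), and 105 showed the reverse (0.417%). Of the 60, 25 are annotated as protein-coding and 28 as pseudogenes, and of the 105, 49 and 44. Over all tested genes 89.8% are protein-coding and 3.84% are pseudogenes. The median level was 1.72 CPM in mtn1-1mtn2-5 for the 60 and 2.90 CPM in WT for the 105.

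AT1G24388, the most abundant of the 60, stood at 57.3, 58.1 and 59.4 CPM in mtn1-1mtn2-5 and at 0 in all 3 WT libraries, at least 925-fold higher against a floor of 3 fragments per library (edgeR adjusted p 1.34e-08). AT4G19240 stood at 43.1, 35.8 and 36.3 CPM against 0, at least 610.1-fold higher, and the pseudogene AT5G20750 at 36.3, 35 and 39.4 CPM against 0, at least 586.5-fold higher. In the other direction, AT2G15292, a non-coding RNA gene, was at 0 in all 3 mtn1-1mtn2-5 libraries and at 32.4, 31.3 and 32.1 CPM in WT, at least 466.5-fold lower (adjusted p 0.000871). The pseudogene AT4G04692 stood at 0.0286, 0.0726 and 0.0368 CPM against 44.4, 51.8 and 42.4 CPM, at least 675-fold lower. Presence in every library of one genotype and the floor in the other was the condition by which these genes were chosen.

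Other genes with very large fitted changes were not wholly at the floor in the lower group. SADHU1-1, a member of a family of short retroelements, stood at 0, 0.196 and 0.0858 CPM in mtn1-1mtn2-5 and 155, 137 and 154 CPM in WT (log2 fold change -10.63, SE 1.85, adjusted p 0.001), and SADHU1-2 fell by 8.41 (adjusted p 0.000145). AT1G66100, annotated as a thionin, stood at 0.05, 0.102 and 0.129 CPM against 157, 108 and 152 CPM (-10.51, SE 1.96, adjusted p 0.00182). HSD2, a hydroxysteroid dehydrogenase gene, stood at 0.05, 0.327 and 0.239 CPM against 109, 100.7 and 105 CPM (-8.99, SE 1.80, adjusted p 0.00305). AT1G63880, annotated as a disease resistance protein of the TIR-NBS-LRR class, fell by 9.12 (adjusted p 0.000373). Among rises, the non-coding RNA AT1G67105 stood at 132, 120 and 111 CPM in mtn1-1mtn2-5 and 1.14, 1.98 and 1.01 CPM in WT (6.46, SE 0.36, adjusted p 2.13e-08). AT1G27580, an F-box gene, differed within the mutant group, at 0.428, 81.0 and 78.8 CPM against at most 0.0679 CPM in WT (10.69, SE 1.48, adjusted p 0.000128).

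The mock libraries showed much the same pattern. Their levels were not compared in choosing these genes, but they shared the fit's estimate of the spread. Of the 60 genes, 44 were again at the floor in all 3 WT mock libraries and at 50 count units or more in all 3 mtn1-1mtn2-5 mock libraries. Of the 105 genes, 96 were present in all 3 WT mock libraries and at the floor in replicates 1 and 3 of mtn1-1mtn2-5, but only 8 were at the floor in all 3. Replicate 2 of mtn1-1mtn2-5 on mock medium held these genes at a median of 15.7% of the WT mock mean, and it held MTN1 at 20.7 CPM, 20% of the WT mean. AT2G15292, for example, stood at 0, 4.78 and 0 CPM in the 3 mutant mock libraries and at 30.4, 28.1 and 27.6 CPM in WT. Why that library differed was not tested, and counts over all genes on mock medium are given with and without it. Through the shared estimate of the spread that library also bears on the p-values of the spermidine comparison. In mtn1-1mtn2-1 on spermidine, compared with the same WT libraries, 41 of the 60 genes were at the floor in all 3 libraries and 93 of the 105 were present in all 3.

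**Figure D3:**
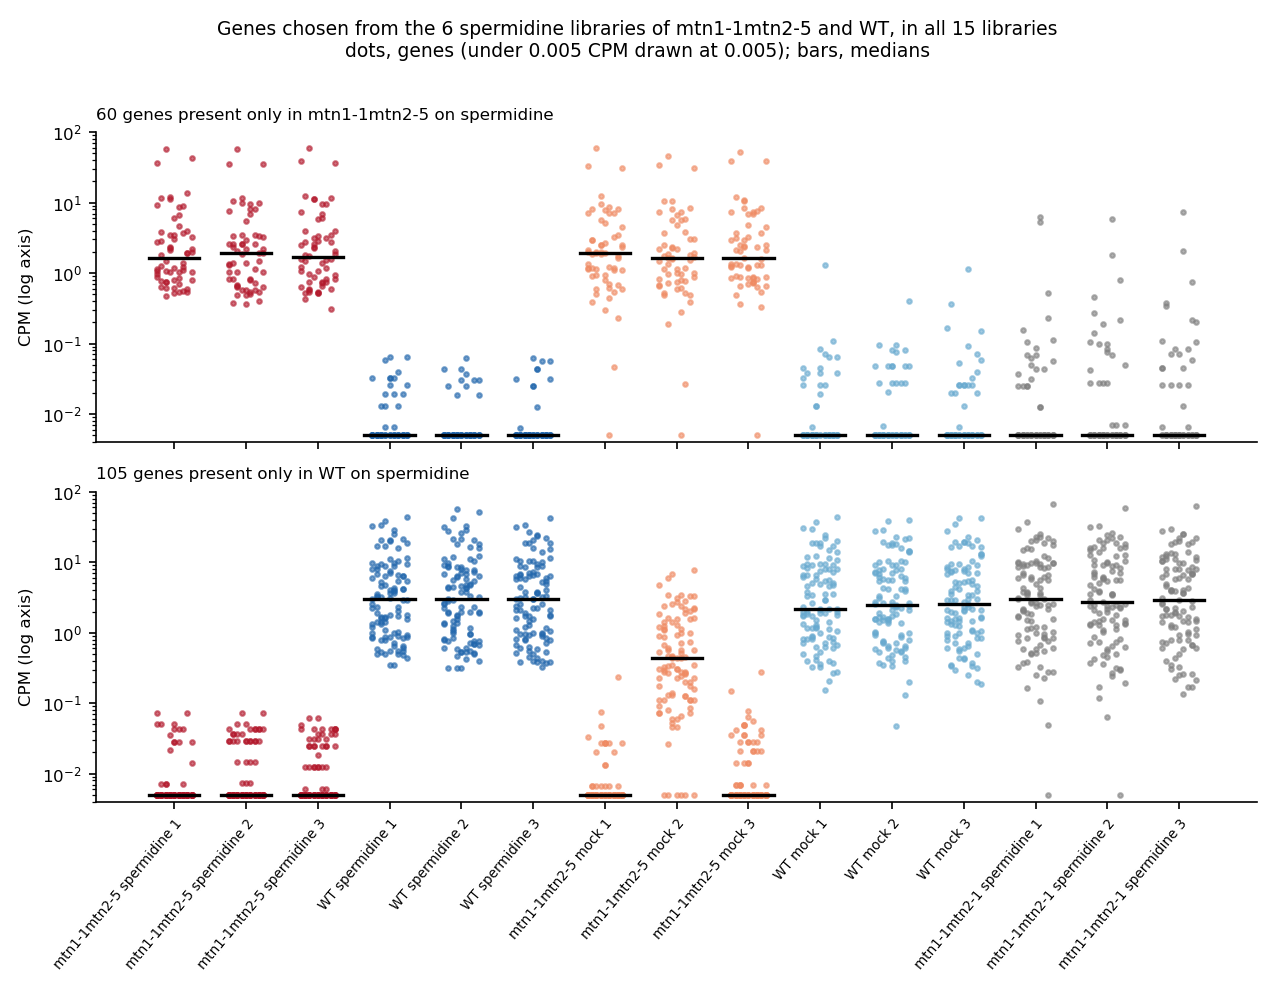
Level in CPM on a log axis of the 60 genes present only in mtn1-1mtn2-5 on spermidine (top) and the 105 present only in WT (bottom), in each of 15 libraries, with a dot per gene (under 0.005 CPM drawn at 0.005) and a bar for the median. The first 6 libraries chose the genes. In the lower panel replicate 2 of mtn1-1mtn2-5 on mock medium lies between the other mutant libraries and WT, at a median of 15.7% of the WT mock mean.

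Calls were unevenly spread along the chromosomes. The tested genes of the 5 nuclear chromosomes were ordered as in the reference and divided into 127 windows of 200 neighbours, and the share called ranged from 3 to 40% per window. A window with 20% or more was termed dense, a limit set after the values were seen, with windows at 19.5% just outside it and at 20% just inside. The 27 dense windows hold 20.4% of the tested genes but 46.2% of the calls and 61.1% of the calls of at least 2-fold. In them 29.4% of genes were called (698 higher, 813 lower), against 8.64% in the other 100 windows (1044 higher, 670 lower). The dense windows also hold 44 of the 60 and 91 of the 105 genes present in one genotype only, which are themselves among the calls that defined the windows. They lie on chromosome 1 in 3 stretches, of 1000, 1200 and 50 genes, on chromosome 2 as 2 single windows, on chromosome 3 as 600 genes, on chromosome 4 as its first 1800 genes, and on chromosome 5 as its last 93. On chromosome 4 these 1800 genes, from AT4G00020 to AT4G20325, held 556 calls (30.9%). The densest window ran from AT2G11880 to AT2G15730 on chromosome 2, where 40% of genes were called.

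Because these windows were chosen by the spermidine calls, the mock libraries, which entered those calls only through the shared fit, give a separate measure. On mock medium 22.3% of genes in the dense windows were called between mtn1-1mtn2-5 and WT and 3.92% in the others. Without replicate 2 of mtn1-1mtn2-5 these shares were 18.7% and 1.93%. Of genes called on spermidine, 93.9% in the dense windows and 73.5% elsewhere had the same sign on mock medium (93.7% and 72.0% without that replicate). In mtn1-1mtn2-1 against WT on spermidine, which shares the WT libraries, 18.5% of genes in these windows and 18.3% elsewhere were called (18.2% of all tested genes). Calls of at least 2-fold made up 5.97% of genes in these windows and 4.36% elsewhere in mtn1-1mtn2-1. For mtn1-1mtn2-5, whose calls defined the windows, these shares were 14.1% and 2.31%.

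MTN1 and MTN2 lie on chromosome 4 outside the dense stretch, and FLC, SULTR1;2 and WRKY70 lie outside dense windows too. ESP lies in a window of chromosome 1 with 19.5% of genes called, just under the limit and beside a dense stretch. AOP1, AOP2, AOP3, BAT5, FRI and ACS6 lie in the stretch on chromosome 4, NIT1 and NIT2 in that on chromosome 3, and FMOGS-OX2, IGMT1, IGMT2, ECS1 and SERAT2;1 in those on chromosome 1. All 5 called genes of the aliphatic glucosinolate list lie in dense windows, which hold 11 of its 31 genes. Of the 7 called genes of the indolic list, 2 do, and dense windows hold only 2 of its 15 genes. For polyamine synthesis they hold 1 of 12 genes and 0 of the 4 called. For sulfate transport they hold 4 of 12 genes and 0 of the 3 called. Of the vascular list 3 of 19 genes lie in dense windows, and all 3 were called. Calls in these lists are among those that defined the windows. Why calls gathered in these windows was not tested.

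**Figure D4:**
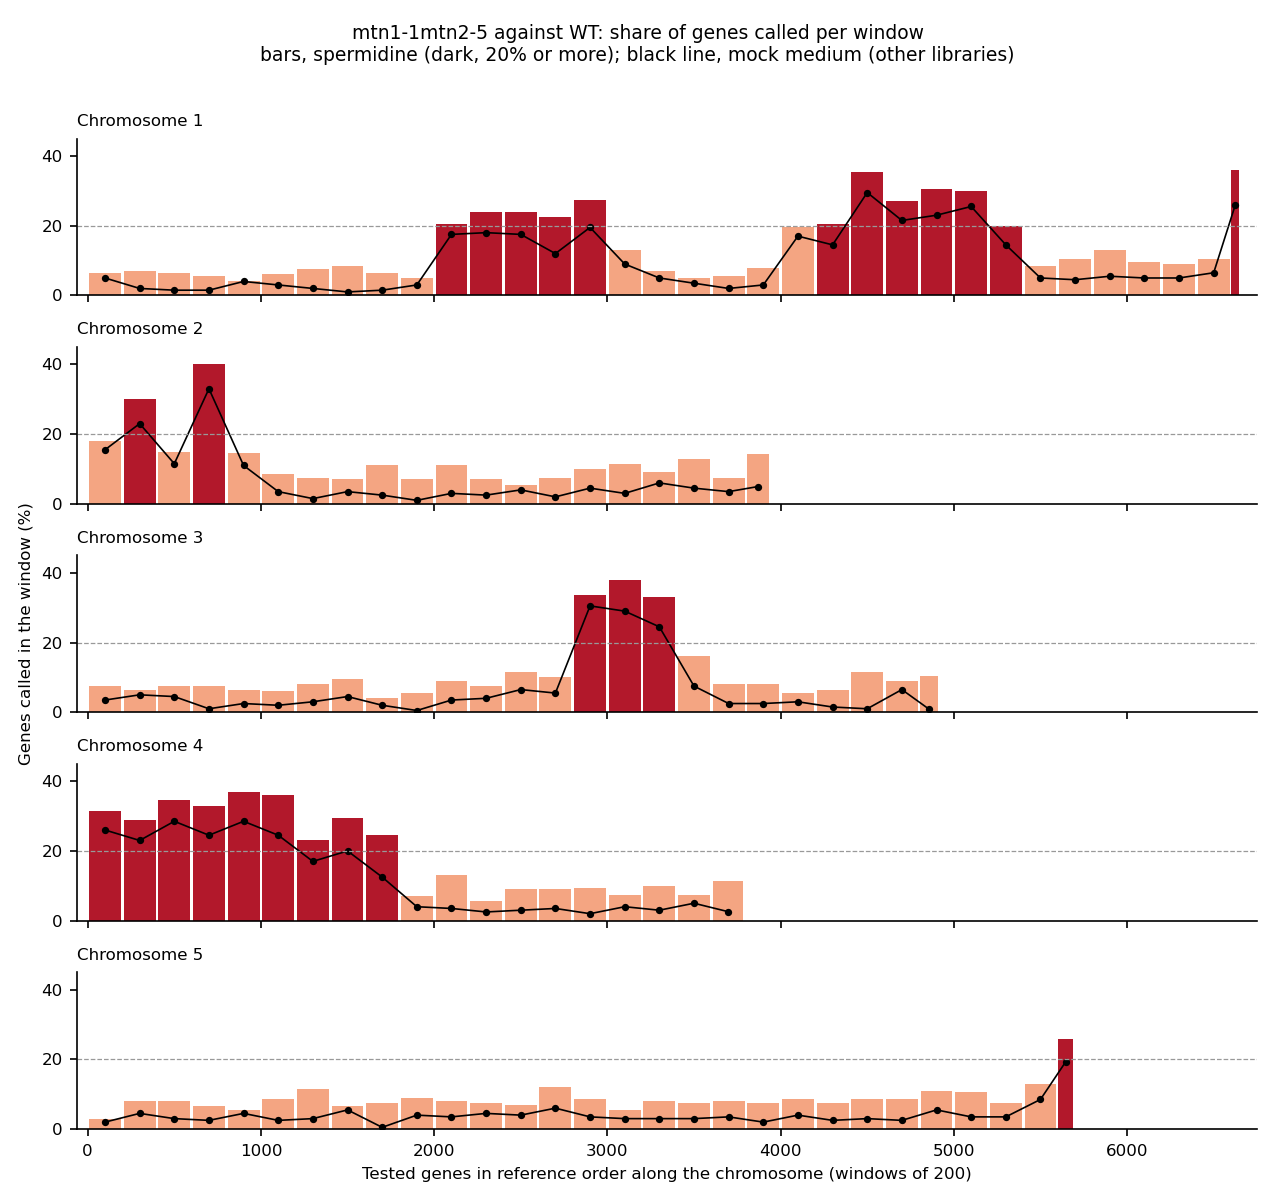
Share of genes called between mtn1-1mtn2-5 and WT (percent, vertical) in windows of 200 tested neighbours along chromosomes 1 to 5 (gene order, horizontal). Bars show spermidine, dark where 20% or more, and the black line shows mock medium. The dark bars reach 40% on chromosome 2 and cover the first 1800 genes of chromosome 4, and the mock line rises in the same places.

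The comparison on mock medium asked whether the genotype difference depended on spermidine. On mock medium 1939 genes were called (7.69% of 25201), 849 higher (3.37%) and 1090 lower (4.33%), and 1347 without replicate 2 of mtn1-1mtn2-5 (572 higher, 775 lower). Of the 3269 genes called on spermidine, 2722 (83.3%) had the same sign on mock medium and 1241 (38.0%) were called there with the same sign. Without that replicate these numbers were 2693 (82.4%) and 1044 (31.9%). ESP on mock medium stood at 2015, 1353 and 1767 CPM in mtn1-1mtn2-5, against 16.8, 15.7 and 11.0 CPM in WT (log2 fold change 6.88, edgeR adjusted p 3.52e-10). AOP3 (12.29, adjusted p 1.42e-07), FLC (3.0, adjusted p 6.08e-08), FRI (-2.18, adjusted p 3.82e-06), IGMT2 (2.62, adjusted p 6.7e-08), BAT5 (-1.47, adjusted p 6.02e-05) and ECS1 (-2.10, adjusted p 1.03e-06) kept their direction and their call. Of the sulfur genes called on spermidine, SERAT2;1 (-0.50, adjusted p 0.00467) and APR3 (-0.77, adjusted p 0.00829) were called lower on mock medium, SULTR1;2 missed the threshold (-0.50, adjusted p 0.0989), and SULTR4;1 (0.06, adjusted p 0.811) and SULTR4;2 (-0.01, adjusted p 0.982) were not called. For none of these 5 did the difference between media pass the test.

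A test of the difference between media passed for 307 genes (1.22% of 25201), 251 with a higher mutant-minus-WT difference on spermidine (0.996%) and 56 with a lower one (0.222%). Among the 251, 247 were lower on spermidine than on mock medium in WT and 98 in mtn1-1mtn2-5. The median change with spermidine was -1.18 in WT and 0.11 in mtn1-1mtn2-5 on the log2 scale, with 0.1 CPM added. Since the test uses these same groups, this describes the genes and is no separate test. The count was 197 without replicate 3 of mtn1-1mtn2-5 on spermidine, 247 without replicate 2 of mtn1-1mtn2-5 on mock medium and 729 with DESeq2.

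AT1G80440, a kelch-repeat gene, stood at 167, 169 and 184.5 CPM in mtn1-1mtn2-5 and 21.2, 25.1 and 20.3 CPM in WT on spermidine, and at 106, 158 and 131 CPM and 124, 137 and 168 CPM on mock medium. WT on spermidine was the only group of the 4 with low values (interaction 3.09, edgeR adjusted p 1.28e-05). RAV1, an AP2/B3 transcription factor, stood at 146, 158 and 177 CPM and 28.6, 29.7 and 36.3 CPM on spermidine, and at 75.5, 92.2 and 90.1 CPM and 91.5, 120 and 145 CPM on mock medium (2.81, adjusted p 1.69e-05). AT5G21940 (2.41, adjusted p 1.79e-05) and AT3G18773, a RING-finger gene (2.40, adjusted p 1.03e-05), were low only in WT on spermidine as well. NAP, a senescence-associated NAC factor, stood at 15.5, 14.0 and 18.1 CPM and 3.72, 4.30 and 2.99 CPM on spermidine, and at 10.6, 11.1 and 9.16 CPM and 17.6, 18.7 and 28.4 CPM on mock medium (3.18, adjusted p 1.79e-05). NAP and BEE3, a brassinosteroid-induced factor (2.41, adjusted p 1.79e-05), were called lower in the mutant on mock medium and higher on spermidine. WRKY70 did likewise, with 40.8, 44.7 and 44.7 CPM in mtn1-1mtn2-5 and 64.8, 84.6 and 99.5 CPM in WT on mock medium (2.87, adjusted p 0.000385). ACS6 (2.79, adjusted p 0.00246) and ZAT10 (3.54, adjusted p 0.00568) were higher in the mutant on spermidine and not called on mock medium.

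**Figure D5:**
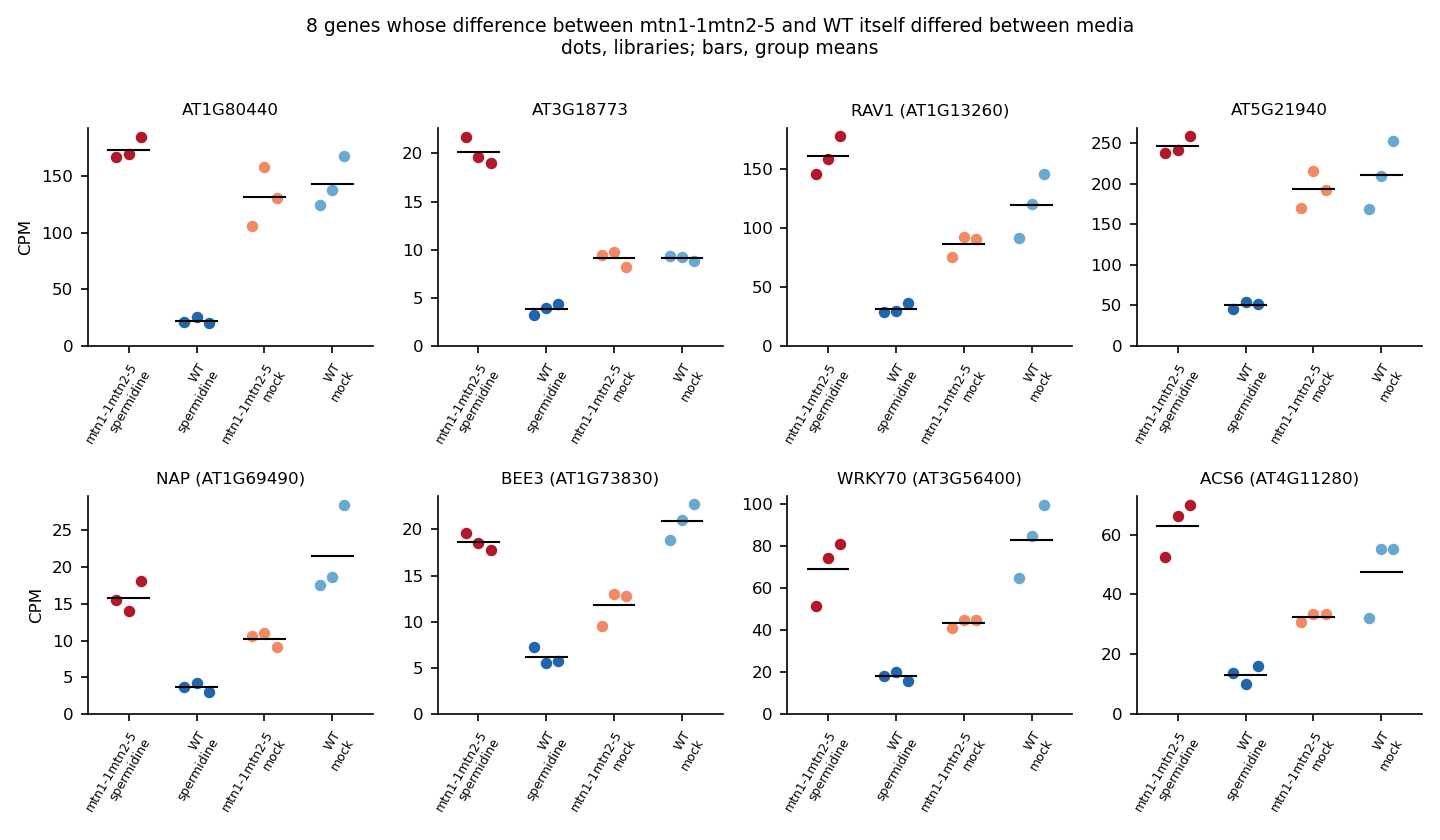
Level in CPM of 8 genes in the mtn1-1mtn2-5 and WT libraries on spermidine and on mock medium, with a dot per library and a bar per group mean, on axes that start at 0. In each panel the 3 WT libraries on spermidine lie lowest, for AT1G80440 between 20.3 and 25.1 CPM.

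The direct comparison with mtn1-1mtn2-1, the other double mutant on spermidine, called 6562 genes (26% of 25201), 2979 higher (11.8%) and 3583 lower (14.2%) in mtn1-1mtn2-5. ESP stood at 14.2, 14.3 and 18.1 CPM in mtn1-1mtn2-1, so the mutants differed by 7.01 on the log2 scale (edgeR adjusted p 1.46e-10). AOP3 was at 0 in all 3 mtn1-1mtn2-1 libraries, and IGMT2 stood at 7.93, 8.01 and 9.46 CPM (3.41 higher in mtn1-1mtn2-5, adjusted p 7.02e-09). SULTR1;2 was lower in mtn1-1mtn2-5 than in mtn1-1mtn2-1 (-0.69, adjusted p 0.0085), as were APR3 (-1.07, adjusted p 0.000287) and PUT1 (-1.47, adjusted p 2.72e-05). For SERAT2;1 (-0.03, SE 0.10, adjusted p 0.873) and MTN1 (0.06, adjusted p 0.936) the difference between the mutants missed the threshold. ACS6 (0.33, adjusted p 0.434), WRKY70 (-0.15, adjusted p 0.678) and AT1G80440 (0.27, adjusted p 0.237) also missed the threshold. Against the shared WT libraries mtn1-1mtn2-1 had its own values of 1.91 for ACS6, 2.08 for WRKY70 and 2.69 for AT1G80440 on the log2 scale, beside 2.24, 1.93 and 2.96 in mtn1-1mtn2-5.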

How the data were processed

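Seedling RNA was extracted from pooled ground tissue, and polyA libraries were made by Novogene or Sickkids, with no record of which library came from which, per the labels' protocols. Trim Galore, STAR, StringTie and the TAIR10 build are named in the submitters' processing notes, without settings. The authors deposited a table of estimated counts per gene and a table of TPM. Low values of the count table were spaced by about 3.33 units, taken here as 1 fragment.

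Estimated counts were rounded and fitted with edgeR 4.0.16 in R 4.3.3 (quasi-likelihood test, TMM scaling, filterByExpr) over all 18 seedling libraries in 6 groups, with Benjamini-Hochberg adjustment over 25201 genes and a threshold of 0.05. An SE given beside an edgeR log2 fold change is its absolute value over the square root of F from that test. It restates the test and does not measure the spread within a group. The 6 spermidine libraries compared held 134.113 to 160.275 M count units. TPM served for summed marker levels and for a limma 3.58.1 fit on log2(TPM + 1), kept to genes with a mean of at least 1 TPM. Other alternatives were DESeq2 1.42.0, its size factors, other filters, fragments in place of units, only the compared groups, the replicate block and leaving out each replicate. The main edgeR fit and the DESeq2 and limma fits were also run on simulated data, and the other alternatives were not.

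Named genes were MTN1 and MTN2, members of 24 lists of 383 genes, the 12 largest graded rises and falls, the 10 most abundant genes present in only one genotype on each side, the 6 rises and 6 falls largest in level, and the 6 interactions with the lowest p. The graded genes, those present in only one genotype and those largest in level were limited to called genes whose groups did not overlap. These genes also held at least 50 count units in every library of the higher group. The comparison, the lists and this rule were chosen with earlier results of these data known. Windows along chromosomes were added after the values were seen. The labels do not say whether replicates were separate cultures, so p-values measure the spread between these libraries, which may be technical.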

Additional observations from a re-analysis of the deposited data

Results flagged for a closer look

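The difference between mtn1-1mtn2-5 and WT itself differed between media in an edgeR interaction test for 307 genes. Of the members of the gene lists and the other named genes, those given here passed, with the size on the log2 scale as spermidine minus mock medium and the adjusted p. Genes with the lowest p were AT3G18773 (2.40, adjusted p 1.03e-05), AT1G80440 (3.09, adjusted p 1.28e-05), RAV1 (2.81, adjusted p 1.69e-05), BEE3, AT5G21940 and NAP (2.41, 2.41 and 3.18, adjusted p 1.79e-05 each). Members of the gene lists were WRKY70 (2.87, adjusted p 0.000385), ACS6 (2.79, adjusted p 0.00246), EBF2 (0.77, adjusted p 0.00424), ZAT10 (3.54, adjusted p 0.00568), SDI2 (1.45, adjusted p 0.0120) and CuAO1 (-0.80, adjusted p 0.0133). On mock medium CuAO1, a copper amine oxidase, was higher in the mutant (45.1, 50.3 and 51.4 CPM, against 21.9, 23.0 and 27.3 CPM), and it was not called on spermidine.

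AT1G22800, annotated as a methyltransferase, stood at 10.4, 12.1 and 11.3 CPM in mtn1-1mtn2-5 and 0.376, 0.352 and 0.25 CPM in WT on spermidine. On mock medium the order was turned around, with 4.20, 0.257 and 0.322 CPM in mtn1-1mtn2-5 and 4.55, 8.31 and 11.0 CPM in WT (7.43, adjusted p 0.0116). AT1G27580 was high only in replicates 2 and 3 of mtn1-1mtn2-5 on spermidine and at most 0.11 CPM in any mock library (12.84, adjusted p 0.0151). The pseudogene AT4G04410 stood at no more than 0.143 CPM in mtn1-1mtn2-5 on spermidine, and in WT at 13.5, 12.5 and 8.36 CPM on spermidine and 5.45, 4.81 and 5.90 CPM on mock medium (-3.24, adjusted p 0.0419). For AT1G44510 the fitted value was 7.08 (adjusted p 0.00154), which rests on WT libraries at 0 on spermidine and at 0.0393 to 0.11 CPM on mock medium and gives no measure of size.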

How the results depend on the processing

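The count of calls on spermidine was 2968 to 4087 under the 8 alternatives that kept all libraries, and 2163 to 3350 with a replicate left out. For the difference between media, DESeq2 called 729 genes in place of 307, and leaving out a replicate gave 197 to 305. The mock comparison ranged from 1218 to 1970 with a replicate left out, including 1282 without WT replicate 1, and the comparison of the mutants from 4705 to 6706. The cause was not tested. Same-numbered spermidine libraries of mtn1-1mtn2-5 and WT did not deviate together (r -0.0372 to -0.00283), and a fit with the replicate block called 2968 genes on spermidine, 1701 on mock medium, 6188 between mutants and 271 for the difference between media, with the calls of MYB51, LOX2, DFR, MAF5, CESA4 and DML3 lost. MAF2 turned to -0.36 with limma on TPM. Of 123 named genes, 93 to 108 kept direction and call with a replicate left out and 111 or more in the other alternatives that gave a value for all 123. DESeq2 gave an adjusted p for only 105 of them, and all 105 kept direction and call. With limma on TPM 113 of the 119 that had a value did so. Genes without a value in every alternative included AT2G15292, AT4G04692, SADHU1-1, AT1G66100 and VIM2. Genes present in only one genotype numbered 47 and 80 with a floor of 1 fragment, and 42 and 84 with a minimum of 100 count units. With 3 libraries a group and genes near the floor, small differences were not detectable.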
